A study of Mus musculus with 9 samples.

Results

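CD11b+ spleen cells of tumor-bearing mice that had spent 24 h in culture were compared with CD11b+ spleen cells of tumor-free mice that had not been cultured. The comparison took the 3 arrays titled as tumor-bearing at time 24 and the 3 titled as tumor-free, 6 of the 9 Affymetrix MG-U74Av2 arrays of the series, and described them across all 12422 probe sets that are not controls. The mice were female and 8 to 12 weeks old. Cells were sorted from the spleen for CD11b in every group, no strain, allele or agent is named in the labels, and the tumor is not named either. The cultured cells stayed in complete medium after the sort, and no tumor-free cells were cultured. The remaining 3 arrays carried tumor-bearing cells without culture, called fresh here. Their values are set beside those of the comparison. They also entered the tests, through the shared estimate of spread, the constant added to signals and the choice of probe sets. Tumor and culture changed together between the groups compared, so their parts cannot be told apart. Whether replicates came from different mice or pools is not stated, and the p-values then reflect only how far these samples spread, which may be technical variation.

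CD11b, the integrin alpha M chain encoded by Itgam, pairs with the beta 2 chain encoded by Itgb2 and is carried by neutrophils, monocytes, many macrophages and some dendritic and natural killer cells. In tumor-bearing mice, cells of this kind accumulate in the spleen and include immature myeloid cells that can restrain T cells. Arginase-1, which splits arginine into ornithine and urea, and inducible nitric oxide synthase, which makes nitric oxide from arginine, are among the enzymes known for this activity.

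Arrays are named by group and replicate number. Each value is a MAS5 signal, a scanner intensity on a linear scale, and changes are given on the scale log2(signal + 7.83), which understates the change of dim genes. Of the 12422 probe sets, 8695 entered the tests and 6371 genes were represented by 1 probe set each. The median signal of the 6 arrays ran from 36.2 to 42.8, with 17.5% to 23.6% of an array's signals under 7.83. No detection calls were used here, so a signal near that value has little meaning as a level.

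An array in each group stood apart. Tumor-free 2 and tumor-free 3 correlated at r = 0.957 across probe sets, which are not independent replicates, but tumor-free 1 correlated with them at 0.827 and 0.823. Cultured 1 and cultured 2 correlated at 0.929, and cultured 3 with them at 0.850 and 0.869. The mean log2 signal of the bacterial spike-in controls was 10.38 on tumor-free 1, 10.51 on both cultured 1 and cultured 2, 9.79 and 9.68 on tumor-free 2 and 3, and 9.29 on cultured 3. The 3'/5' ratio of beta-actin, a measure of RNA integrity, split the arrays in the same way, from 2.27 to 2.57 on tumor-free 1 and cultured 1 and 2 and from 0.994 to 1.19 on the other 3 arrays. The same ratio of Gapdh did not split them so, with 1.63 on tumor-free 1, 0.980 and 1.26 on cultured 1 and 2, 0.924 and 1.11 on tumor-free 2 and 3 and 0.836 on cultured 3. The part of hybridization or RNA quality in the results was not tested. List counts are given with and without tumor-free 1 and cultured 3, as are the changes of several genes. The call of every called gene is accounted for. Without these arrays, tumor-free 2 and 3, low in spike-in signal and actin ratio, stand against cultured 1 and 2, high in both. Group and this split then coincide and cannot be told apart in that fit.

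The label of the sort was checked on 12 markers of CD11b+ myeloid cells. Ly6c1 was not matched on the array under that symbol, and the other 11 were tested and read between 50.4 and 16092 on the 6 arrays. Itgam read 373, 244 and 256 on tumor-free 1 to 3 and 363, 333 and 954 on cultured 1 to 3 (log2 change 0.75 ± 0.39, SE, 3 arrays a group, limma with Benjamini-Hochberg adjustment, adjusted p = 0.425). Itgb2 read 309, 995 and 844 against 959, 1022 and 1969 (0.95 ± 0.46, adjusted p = 0.395). S100a8, a calcium-binding protein abundant in neutrophils, was among the brightest genes, with 11943 to 15965 on the tumor-free and 7642 to 16092 on the cultured arrays. None of the 11 markers was called by limma (0 at an unadjusted p under 0.05).

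In the comparison itself, the largest rises included Arg1, Il12a, Tnfrsf9, Ptgr1 and Ptges, and the largest falls included Apoe, Klf2, Mrc1, the C1q chains and Fosb. At an adjusted p below 0.05, 107 of 8695 probe sets were called, 1.23% of those tested, 51 higher and 56 lower in cultured cells. At an unadjusted p under 0.05 there were 1226. Counted by gene, 31 were higher (0.487% of 6371 genes) and 49 lower (0.769%). The smallest change called was 1.23 in size. The median change over all genes was 0.03. All 80 genes called had groups that did not overlap, against 9.81% of all genes tested with every cultured array above every tumor-free array and 8.81% with every cultured array below. Calls and overlap were read from the same values, so this separation adds no support to the calls.

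**Figure D1:**
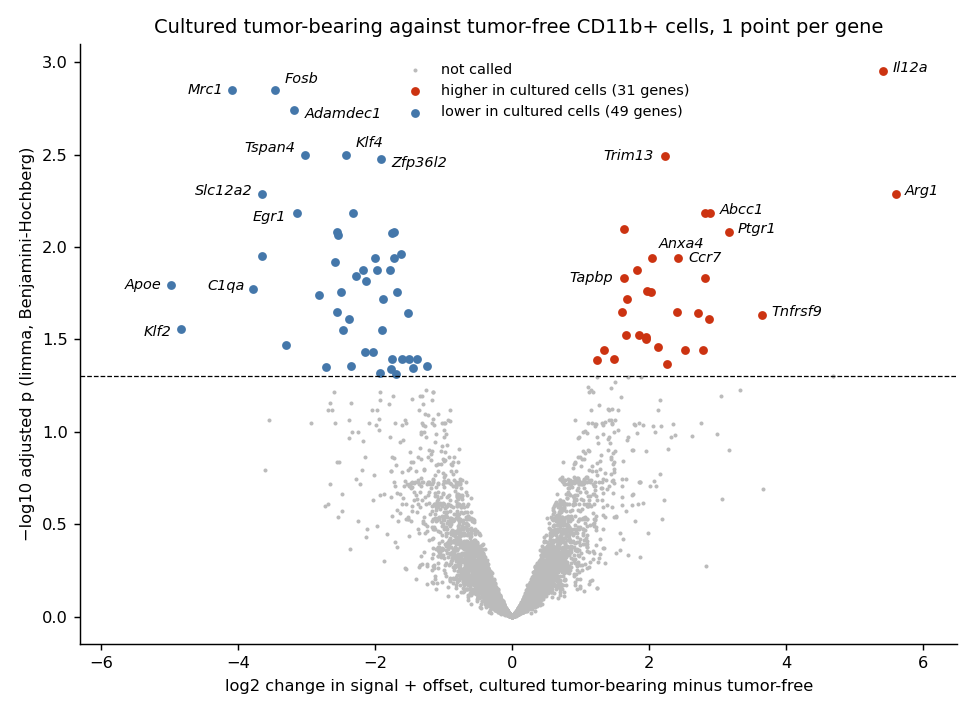
Log2 change from tumor-free to cultured tumor-bearing cells (x axis) against −log10 of the limma p-value adjusted by Benjamini-Hochberg (y axis), 1 point per gene over 6371 genes, with the dashed line at an adjusted p of 0.05. The 31 genes called higher are red and the 49 called lower are blue; Arg1 and Il12a lie farthest to the right and Apoe and Klf2 farthest to the left.

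How many genes were called depended on the arrays that stood apart more than which genes were called. Without tumor-free 1 and cultured 3, 347 genes were higher (5.45%) and 456 lower (7.16%), and 79 of the 80 genes kept their call. The exception was Serf1 (adjusted p = 0.0619). Below, counts of called list members from that fit are to be read against 5.45% higher and 7.16% lower over all genes. In the main fit these shares were 0.487% and 0.769%. Leaving out tumor-free 1 alone ended none of the 80 calls and leaving out cultured 3 ended 13. Leaving out tumor-free 2, tumor-free 3, cultured 1 or cultured 2 ended 57, 59, 50 and 51. In all, 18 genes kept their call whichever of the 6 arrays was left out: Arg1, Il12a, Ptgr1, Abcc1, Pon3 and Trim13 among those that rose, and Mrc1, Slc12a2, Fosb, Adamdec1, Egr1, Tspan4, Jun, S100a4, Klf4, Dusp1, Zfp36l2 and Lmnb1 among those that fell. In a fit to the 6 arrays alone, in place of all 9, 12 of the 80 genes were called. These were Arg1, Il12a, Trim13, Mrc1, Fosb, Adamdec1, Tspan4, Klf4, Zfp36l2, Ccnd1, Ptpn22 and Lmnb1.

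The largest rise was that of Arg1 (93097_at), which encodes arginase-1. Its signal was 188, 16.4 and 18.6 on tumor-free 1 to 3 and 2751, 2403 and 2160 on cultured 1 to 3. Every cultured array lay far above every tumor-free array, and tumor-free 1 was the highest of the tumor-free arrays. The log2 change was 5.60 ± 0.70 (adjusted p = 0.00519) and 6.67 without tumor-free 1 and cultured 3. Fresh cells read 6.20, 33.5 and 11.8, near tumor-free 2 and 3 (-1.16, adjusted p = 0.417 against tumor-free cells). Against fresh cells, Arg1 was higher in cultured cells by 6.76 (adjusted p = 0.000857). The background for the cultured against fresh comparison was 2.69% of probe sets called, and for fresh against tumor-free 1.90%. Both share arrays with the comparison described here.

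Other genes of arginine use and of interleukin 4 and 13 signaling were described from a list of 20 tested genes, of which Arg1 was called higher, Mrc1 lower and 18 neither, with a median change of 0.14 (5 higher, 1 lower and 0.16 without tumor-free 1 and cultured 3). Nos2, the inducible nitric oxide synthase, read 35.5, 13.6 and 9.81 on the tumor-free and 115, 78.7 and 69.6 on the cultured arrays. Its groups did not overlap, and its adjusted p lay just past the threshold (1.88 ± 0.40, adjusted p = 0.0503). Arginine uptake by Slc7a2 and resynthesis from citrulline by Ass1 likewise had non-overlapping groups, with 1.35 ± 0.33 (adjusted p = 0.0888) and 1.16 ± 0.27 (adjusted p = 0.0764). Arg2, the mitochondrial arginase, overlapped because tumor-free 1 read 1078 while tumor-free 2 and 3 read 298 and 277 (1.07 ± 0.45, adjusted p = 0.313). The receptor and relay genes of the pathway differed less: Il4ra by -0.40 ± 0.57, Il13ra1 by -0.55 ± 0.44 and Stat6 by -0.45 ± 0.26, all with adjusted p of at least 0.481. A second probe set of Il4ra pointed the other way (0.69 ± 0.41, adjusted p = 0.493). Ifngr1, a chain of the interferon gamma receptor, changed by -0.30 ± 0.28 (adjusted p = 0.679). Ifng was too dim to be tested, at 1.08 to 2.97 on the tumor-free and 0.71 to 17.8 on the cultured arrays.

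**Figure D2:**
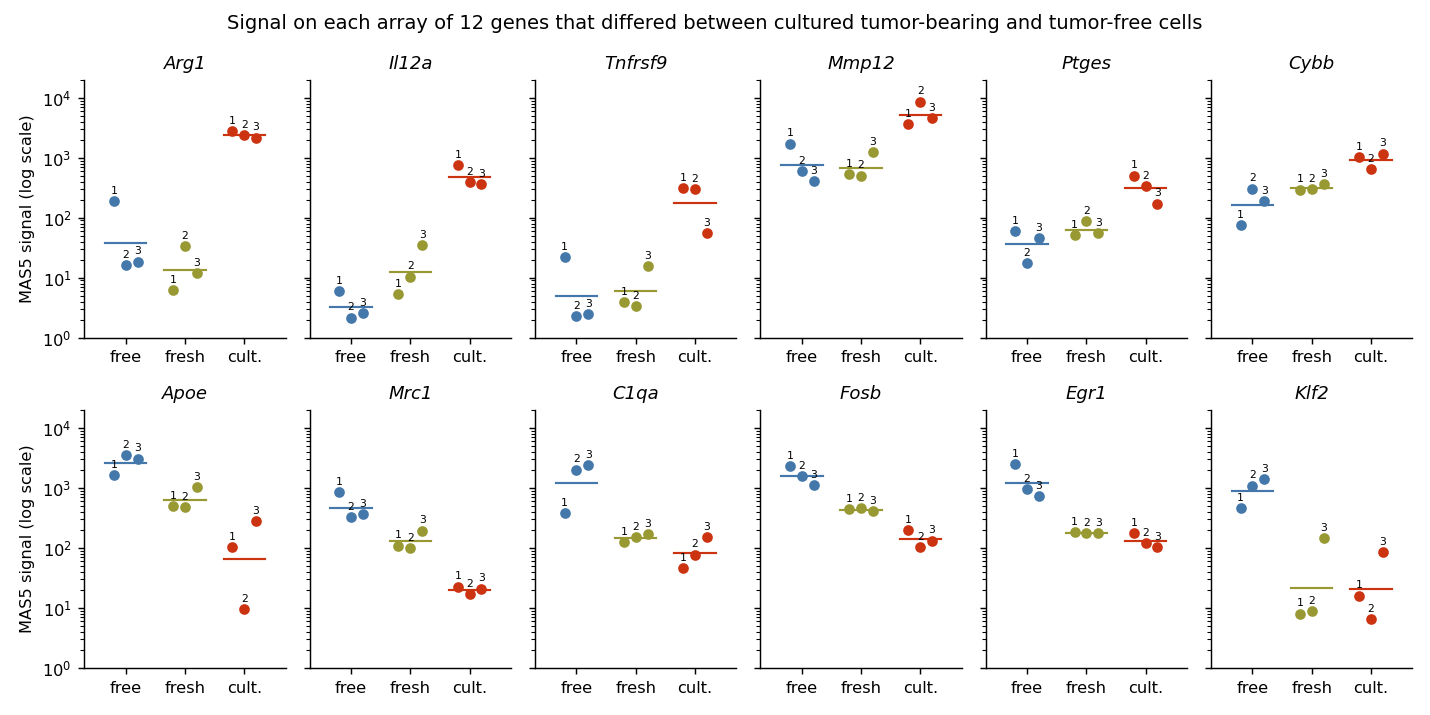
MAS5 signal on a log scale (y axis) of 12 genes on each of the 3 tumor-free, 3 fresh and 3 cultured arrays (x axis); points carry the replicate number and lines are geometric means. Arg1 and Il12a are high only on the cultured arrays among those shown, Mrc1 and Fosb fall from tumor-free over fresh to cultured arrays, and tumor-free 1 often lies apart from tumor-free 2 and 3.

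Il12a (100773_at) encodes the p35 chain of interleukin 12, a cytokine that drives interferon gamma production. It read 6.05, 2.17 and 2.60 on the tumor-free arrays, all below the offset, and 748, 396 and 362 on the cultured arrays. The groups lay far apart, the fresh arrays reading 5.30, 10.5 and 35. The change was 5.42 ± 0.45 (adjusted p = 0.00112), the highest adjusted p over the 6 fits that each left out 1 array being 0.0058, and 5.76 without tumor-free 1 and cultured 3. Il12b, the p40 chain that p35 needs to form interleukin 12, read 21.6, 63.1 and 36.2 against 44.8, 64.2 and 18.7 and did not pass the test (0.04 ± 0.46, adjusted p = 0.981).

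Il12a was the only one of 26 cytokine genes tested that was called, and the list's median was 0.11. Without tumor-free 1 and cultured 3, 5 were higher and 2 lower, against 5.45% and 7.16% of all genes, with a median of 0.33. Il10, an anti-inflammatory cytokine, stayed dim, at 3.10 to 19.6 on the tumor-free and 5.44 to 41.0 on the cultured arrays, while the fresh arrays read 107 to 137 (0.50 ± 0.53 cultured against tumor-free, adjusted p = 0.721). Il1b was bright and overlapping, with 4108 to 9982 against 3315 to 7819 (-0.13 ± 0.44, adjusted p = 0.931). Il1a read 280, 51.8 and 78.0 against 569, 228 and 1207 (2.27 ± 0.63, adjusted p = 0.124), and its receptor antagonist Il1rn changed by 2.16 ± 0.66 (adjusted p = 0.169). Vegfa, an angiogenic factor, had non-overlapping groups without passing the test (2.76 ± 0.68, adjusted p = 0.0898). Tnf, Il6 and Tgfb1 did not pass either, with -0.74 ± 0.80, 1.36 ± 0.84 and -1.01 ± 0.33 and adjusted p of at least 0.192.

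Of the receptors, Tnfrsf9 and Ccr7 rose and Cxcr2 fell. Tnfrsf9 (103509_at), the costimulatory receptor 4-1BB, read 22.3, 2.28 and 2.46 on the tumor-free and 316, 297 and 55.5 on the cultured arrays (3.65 ± 0.66, adjusted p = 0.0235). The groups did not overlap, cultured 3 being the lowest of its group, and the change was 4.94 without tumor-free 1 and cultured 3. A second, dim probe set of Tnfrsf9 did not pass the test (0.05 ± 0.50, adjusted p = 0.981). Ccr7, the receptor that guides leukocytes to lymph nodes, read 23.7, 51.9 and 57.8 against 164, 336 and 314 (2.42 ± 0.36, adjusted p = 0.0115). Cxcr2, the neutrophil receptor for CXC chemokines, read 163, 247 and 275 against 37.8, 22.4 and 70.4 (-2.28 ± 0.36, adjusted p = 0.0144). All tumor-free arrays lay above all cultured arrays for Cxcr2. Removing any of tumor-free 2 and 3 and cultured 1 and 2 ended the calls of Tnfrsf9 and Cxcr2 (adjusted p up to 0.113 and 0.0801), and removing cultured 2 that of Ccr7 (0.0575).

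Of 16 chemokine receptor genes, Ccr7 and Cxcr2 were the 2 called, and the median was -0.40 (3 higher, 5 lower and -0.74 without tumor-free 1 and cultured 3). Ccr2, the receptor of inflammatory monocytes, had non-overlapping groups, 504, 1043 and 1011 against 183, 415 and 113, without passing the test (-1.94 ± 0.47, adjusted p = 0.0856). None of 18 chemokine genes was called by limma (4 at an unadjusted p under 0.05), against 5 higher and 2 lower without tumor-free 1 and cultured 3. Ccl5, which attracts T cells, had the largest change among them, from 5.57, 193 and 205 to 2387, 5020 and 804 (4.69 ± 0.99, adjusted p = 0.0502). Ccl22 also had non-overlapping groups (2.06 ± 0.53, adjusted p = 0.0934). The other chemokines with changes past 1.5 in size were lower in cultured cells, Ccl2 by -2.36 ± 1.23, Ccl4 by -1.61 ± 0.59, Ccl6 by -1.61 ± 0.49 and Ccl8 by -1.56 ± 1.04, none passing the test (adjusted p of at least 0.166).

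Genes typical of tissue macrophages included several of the largest falls. Of 21 macrophage genes tested, 5 fell, none rose and 16 did not pass, with a median of -0.25. Without tumor-free 1 and cultured 3, 9 fell, 2 rose and the median was -0.41, while 7.16% of all genes fell and 5.45% rose. Apoe (95356_at), which carries lipids out of macrophages, read 1623, 3497 and 3079 on the tumor-free and 103, 9.66 and 283 on the cultured arrays (-4.98 ± 0.81, adjusted p = 0.016). Even the lowest tumor-free array was far above the highest cultured array, and the fresh arrays lay between, at 499, 476 and 1044. Without tumor-free 1 and cultured 3 the changes of Apoe and Mrc1 were -6.22 and -3.68. Mrc1 (103226_at), the mannose receptor and a marker of alternatively activated macrophages, read 861, 322 and 365 against 22.7, 16.8 and 21.1 (-4.09 ± 0.39, adjusted p = 0.00142). Fresh cells read 110, 98.3 and 195 for Mrc1, below the tumor-free arrays (-1.80, adjusted p = 0.0433) and above the cultured ones (2.29 higher than cultured, adjusted p = 0.0121 for cultured against fresh).

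The 3 chains of complement C1q, which resident macrophages make, fell together. C1qa (98562_at) read 380, 2019 and 2426 on tumor-free and 46.4, 77.2 and 154 on cultured arrays (-3.78 ± 0.62, adjusted p = 0.017). C1qb and C1qc fell by -3.64 ± 0.53 (adjusted p = 0.0112) and -3.29 ± 0.63 (adjusted p = 0.0339). Tumor-free 1 was the lowest tumor-free array for all 3 chains, yet above every cultured array. The fresh arrays were low as well, with C1qa at 126, 151 and 171. With tumor-free 1 and cultured 3 left out, the falls were -5.03, -4.67 and -4.51. A second probe set of C1qb, did not pass the test (0.18 ± 0.40, adjusted p = 0.891).

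Leaving out 1 array ended some of these calls. For Apoe, adjusted p rose to as much as 0.0801 without tumor-free 2, tumor-free 3 or cultured 1. With any of tumor-free 2 and 3 and cultured 1 and 2 removed, it reached 0.0801 for C1qa and 0.154 for C1qc, and for C1qb 0.0612 without tumor-free 2 or tumor-free 3. For Mrc1 it reached at most 0.00968 in all 6 fits.

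Other macrophage genes went their own way. Ctsl, a lysosomal protease, read 944, 92.2 and 74.3 on the tumor-free and 1709, 2271 and 2016 on the cultured arrays, without overlap (3.33 ± 0.73, adjusted p = 0.0598). Csf1r, the macrophage growth factor receptor, and Adgre1, which encodes F4/80, overlapped, with 0.15 ± 0.45 and -0.25 ± 0.62. Of 13 genes of red pulp macrophages and iron, only the C1q chains were called, against 6 lower and 1 higher without tumor-free 1 and cultured 3. Vcam1 and the transcription factor Spic, which marks red pulp macrophages, were high on tumor-free 2 and 3 alone: Vcam1 read 1975 and 2316 there and 55.2 on tumor-free 1, against 41.7 to 56.0 on the cultured arrays (-3.60 ± 1.08, adjusted p = 0.162). In bulk samples such as these, fewer cells of a type and less RNA per cell cannot be told apart.

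Fgl2, Lgmn and Adamdec1, which macrophages also express, were outside that list and fell. Adamdec1 (98976_at), a disintegrin-like metalloprotease, read 88.9, 117 and 120 against 6.62, 3.97 and 4.09 (-3.19 ± 0.32, adjusted p = 0.00182). The cultured arrays were all below the offset, and the fresh arrays, at 75.5, 70.0 and 144, were in the tumor-free range. Fgl2, a secreted immunoregulatory protein, fell by -2.37 ± 0.43 (adjusted p = 0.0244). Lgmn, the lysosomal asparagine endopeptidase, read 333, 366 and 316 against 98.8, 128 and 91.1 (-1.61 ± 0.23, adjusted p = 0.0109). Removing either of tumor-free 2 and 3 ended both calls, and removing cultured 1 or 2 also that of Fgl2 (adjusted p up to 0.115 for Fgl2 and 0.0567 for Lgmn).

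Immediate early genes, whose transcription follows a stimulus within minutes without new protein synthesis, had more members called than any other list. Of 34 tested, 12 fell, none rose and 22 did not pass, and 26 had a change below 0. Over all genes, 52.9% had a change above 0. In 19 of the list, every cultured array lay below every tumor-free array, against 8.81% of all genes. The median was -1.04, against 0.03 over all genes. Over the 6 fits that each left out 1 array, the number called lower ran from 6 to 14 and the median from -1.24 to -0.87. With tumor-free 1 and cultured 3 left out, 15 were lower, 4 were higher and the median was -0.75, against 7.16% and 5.45% of all genes. The list's median was -0.62 in fresh against tumor-free cells and -0.43 in cultured against fresh cells.

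Klf2 (96109_at), a transcription factor of quiescent leukocytes, had the largest fall of the group, from 462, 1095 and 1390 to 16.1, 6.44 and 84.1 (-4.83 ± 0.89, adjusted p = 0.0277). All tumor-free arrays lay well above all cultured arrays, cultured 3 being the highest of its group, and the change was -6.07 without tumor-free 1 and cultured 3. Fosb (103990_at), a subunit of the AP-1 factor, read 2344, 1596 and 1123 against 201, 104 and 132 (-3.45 ± 0.32, adjusted p = 0.00142). Egr1 (98579_at), a zinc finger factor, read 2518, 950 and 724 against 178, 119 and 103 (-3.13 ± 0.41, adjusted p = 0.00657). Its second probe set did not pass the test (0.58 ± 0.69, adjusted p = 0.762). The AP-1 genes Jun and Junb fell by -2.56 ± 0.36 and -2.47 ± 0.46, and the factor Klf4 by -2.42 ± 0.27. In fresh against tumor-free cells, Egr1, Jun, Junb and Klf4 changed by -2.69, -1.99, -1.35 and -1.65. None of these passed the limma test of cultured against fresh cells (adjusted p of at least 0.177).

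Other members of the list called lower included Zfp36 and Dusp1. Zfp36, or tristetraprolin, which destabilizes cytokine mRNAs, read 4739, 3547 and 3222 against 942, 687 and 228 (-2.82 ± 0.48, adjusted p = 0.0182), and its relative Zfp36l2 fell by -1.92 ± 0.22 (adjusted p = 0.00335). Dusp1, a phosphatase of MAP kinases, read 5167, 4921 and 4271 against 1342, 1049 and 612 (-2.32 ± 0.31, adjusted p = 0.00657). Dusp6, a phosphatase of ERK, fell by -1.76 ± 0.36, Rgs2, a brake on G protein signaling, by -2.34 ± 0.48, and Ier2 by -1.52 ± 0.27. None of these genes overlapped between the groups. In fresh against tumor-free cells, Zfp36, Zfp36l2, Dusp6, Rgs2 and Ier2 changed by -2.50, -1.53, -2.50, -3.30 and -0.99. Cultured against fresh cells, none of these passed the limma test (adjusted p of at least 0.35). Dusp1 changed by -0.85 in fresh cells and by -1.46 from fresh to cultured cells (adjusted p = 0.0293 for that step). Fos, the partner of Jun, did not pass the test because cultured 1 and 2 read 4668 and 3467 and cultured 3 read 952, against 5910 to 8341 on the tumor-free arrays (-1.44 ± 0.52, adjusted p = 0.233). Fosl1 and Sgk1 had the largest changes in the other direction, 1.28 ± 0.71 and 0.96 ± 0.37, and did not pass.

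Among these genes, Fosb, Egr1, Jun, Klf4, Dusp1 and Zfp36l2 stayed called in all 6 fits that left out 1 array. Removing any of tumor-free 2 and 3 and cultured 1 and 2 ended the calls of Klf2, Junb, Rgs2 and Dusp6, and removing cultured 3 also that of Rgs2 (adjusted p up to 0.127, 0.128, 0.194 and 0.209). Zfp36 and Ier2 needed tumor-free 2, tumor-free 3 and cultured 2 for theirs (up to 0.0782 and 0.113).

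**Figure D3:**
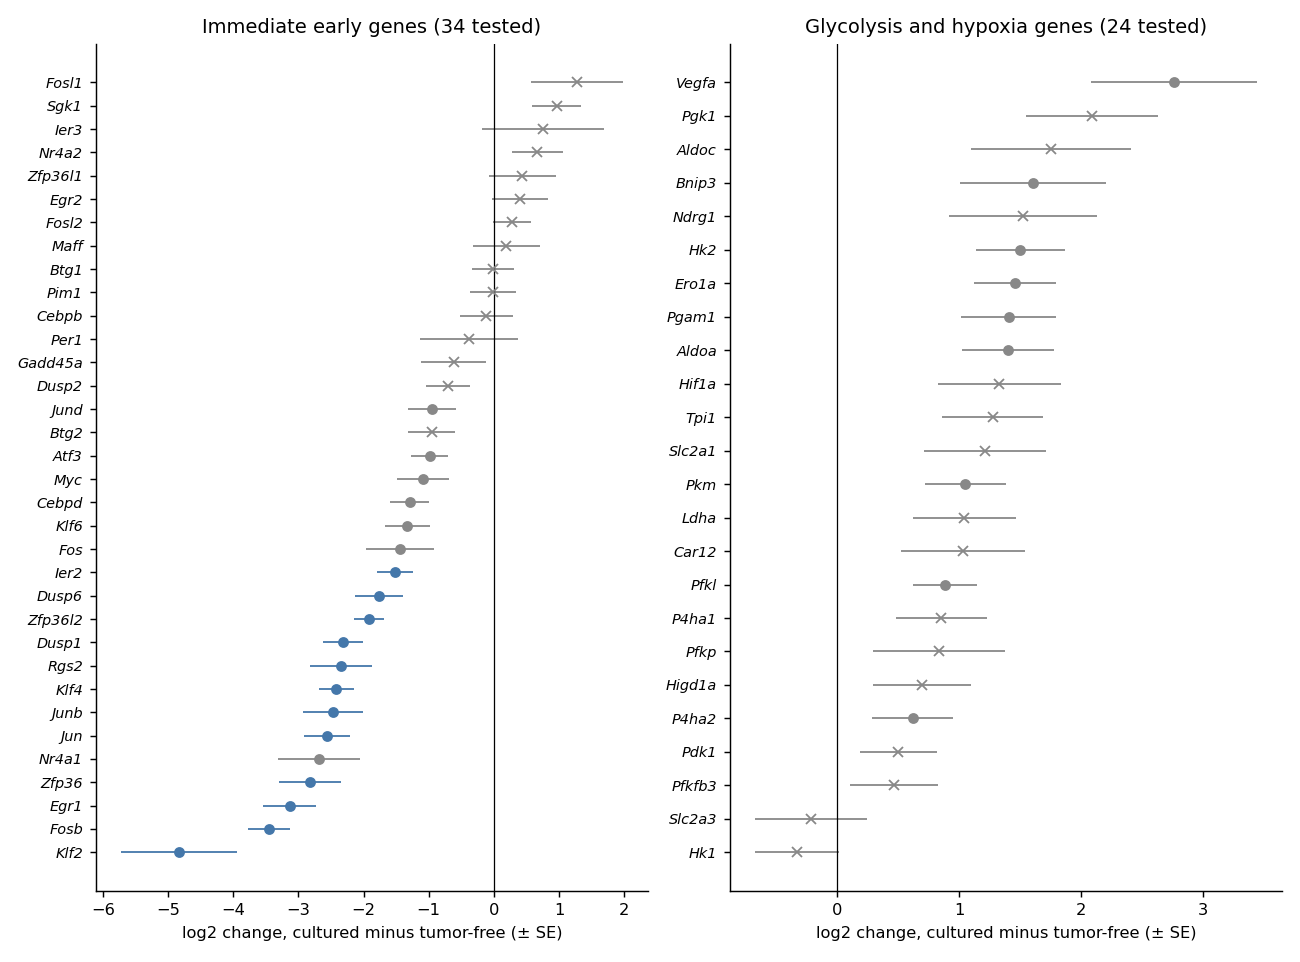
Log2 change from tumor-free to cultured cells with its SE (x axis) for the 34 immediate early and the 24 glycolysis and hypoxia genes tested (y axis). Blue marks genes called lower; circles are genes whose groups of 3 arrays do not overlap and crosses those that overlap. Of the early genes 12 are blue, while 22 of the 24 glycolysis genes lie above 0 and none is called.

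Promoter sequences were searched for the immediate early genes called lower, which share their direction by that choice. Of the 12 that fell, 9 were found in the RefSeq promoter table for GRCm38.p6, and the 250 bases before each start were searched on both strands for a cAMP response element (TGACGTCA) and a CArG box, the site of serum response factor. Of the 9 genes, 1 held each motif, against 1.55% and 1.47% of all 32851 windows of that length. The cAMP response element, in capitals, lay 143 bases before the start of Dusp1, on the minus strand, and the stretch printed around it spans chr17:26508578-26508645. In Zfp36, on the minus strand of chromosome 7, the CArG box lay 58 bases before the start, in a printed stretch that spans chr7:28379247-28379316. A match describes letters in this window and does not show that a factor binds there.
Dusp1, cAMP response element: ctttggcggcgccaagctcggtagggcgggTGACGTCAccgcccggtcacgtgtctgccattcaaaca
Zfp36, CArG box: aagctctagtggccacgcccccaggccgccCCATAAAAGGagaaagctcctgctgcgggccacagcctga

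Of 15 S100 and mature neutrophil genes, 3 fell, none rose and the median was -0.35 (5 lower, 2 higher and -0.42 without tumor-free 1 and cultured 3). S100a4, a calcium-binding protein of motile cells, read 1218, 1476 and 1357 against 155, 438 and 167 (-2.54 ± 0.36, adjusted p = 0.00861). Csf3r, the G-CSF receptor, read 965, 1596 and 1351 against 355, 278 and 491 (-1.79 ± 0.28, adjusted p = 0.0133), and Cxcr2 was the third. The groups were apart for all 3 genes. S100a8 and S100a9 overlapped, with -0.32 ± 0.38 and -0.35 ± 0.42 (adjusted p of at least 0.756). The call of Csf3r ended when any of tumor-free 2 and 3 and cultured 1 and 2 was removed (adjusted p up to 0.0796), and its other probe sets did not pass (-1.82 ± 0.39, adjusted p = 0.055, and -0.17 ± 0.32, adjusted p = 0.862).

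None of 9 primary granule genes was called by limma (2 at an unadjusted p under 0.05), and of 16 secondary and tertiary granule genes only Cybb rose, with medians of -0.16 and 0.26. With tumor-free 1 and cultured 3 left out, the primary granule list had 1 lower and a median of -1.05. The secondary and tertiary list then had 3 higher, 6 lower and a median of -0.70, its sign turned. With tumor-free 1 set against cultured 1 and 2, the 2 medians were 0.29 and 0.61. With tumor-free 2 and 3 set against cultured 3, they were 0.87 and 0.97. Ltf, the lactoferrin of secondary granules, read 102 on tumor-free 1 against 2774 and 3239 on its group, and 577 and 221 on cultured 1 and 2 against 3699 on cultured 3 (-0.33 ± 1.22, adjusted p = 0.939). The spread within each group was larger than the difference between them. Ly6g, a neutrophil surface marker, spread in the same way, with 93.6 on tumor-free 1 and 3562 on cultured 3 as its extremes (0.99 ± 0.97). Of 20 monocyte genes, Klf2, Klf4 and Cd244a fell, none rose and the median was 0.08 (6 lower, 3 higher and -0.12 without tumor-free 1 and cultured 3). Cd244a, a SLAM family receptor, fell from 81.7, 206 and 172 to 38.1, 34.1 and 26.7 (-1.90 ± 0.35, adjusted p = 0.0283) a call that ended when any array other than tumor-free 1 was removed (up to 0.15).

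Tap1, Tapbp and Irf1, of the list of interferon gamma GTPases and MHC class I, rose. Tap1, a subunit of the peptide transporter, read 198, 352 and 282 on the tumor-free and 591, 938 and 1181 on the cultured arrays (1.66 ± 0.31, adjusted p = 0.0299). Tapbp, or tapasin, which links that transporter to class I molecules, read 628, 635 and 512 against 1315, 2054 and 2314 (1.63 ± 0.26, adjusted p = 0.0147). Irf1, the interferon-induced factor that drives this group, read 344, 407 and 356 against 748, 844 and 1315 (1.33 ± 0.26, adjusted p = 0.0362). For all 3, every cultured array was above every tumor-free array. The fresh arrays read 158, 152 and 197 for Irf1, below the tumor-free arrays. All 3 calls ended when tumor-free 2, tumor-free 3 or cultured 2 was removed, and that of Irf1 also without cultured 1 (adjusted p up to 0.124, 0.0873 and 0.165). Other probe sets of Tap1 (0.28 ± 0.42) and Tapbp (0.96 ± 0.43 and 0.61 ± 0.30) did not pass.

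These were the 3 of 24 genes of interferon gamma GTPases and MHC class I called, all higher. In the list, 23 of 24 changes lay above 0, against 52.9% over all genes, and the median was 0.35. The fresh arrays had a median of -0.96 against tumor-free cells. The class I chains themselves were bright and did not pass the test: H2-K1 read 3772 to 5018 against 5284 to 6466 (0.35 ± 0.26) and B2m 3293 to 3957 against 3653 to 4940 (0.34 ± 0.26). The GTPase genes were high mainly on cultured 3, with Gbp2 at 104, 254 and 1934 on cultured 1 to 3 and Igtp at 112, 167 and 864. Neither passed the test (1.98 ± 0.90 and 1.10 ± 0.58). With tumor-free 1 and cultured 3 left out, 3 genes of the list were higher, none lower, and the median was 0.15.

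Type I interferon response genes had no call among 21 tested by limma (2 at an unadjusted p under 0.05), with a median of 0.09, against 2 lower and -0.21 without tumor-free 1 and cultured 3. Cultured 3 stood apart here as well: Ifit3 read 184, 108 and 101 on the tumor-free and 13.2, 40.6 and 886 on the cultured arrays (-0.47 ± 1.04, adjusted p = 0.888). The list's median was -0.77 when tumor-free 1 was set against cultured 1 and 2, and 1.52 when tumor-free 2 and 3 were set against cultured 3. Of 16 MHC class II presentation genes none was called (2 at an unadjusted p under 0.05), with a median of -0.43 (5 lower and -0.47 without tumor-free 1 and cultured 3). The class II chain H2-Aa read 1972, 5950 and 5577 against 6000, 7078 and 1167, tumor-free 1 and cultured 3 being the low arrays. Among 31 proteasome genes, Psmb5, a catalytic subunit, was called higher (1.23 ± 0.25, adjusted p = 0.0411) and the median was 0.33 (3 higher, 1 lower and 0.12 without tumor-free 1 and cultured 3). The call of Psmb5 ended when any array other than tumor-free 1 was removed (adjusted p up to 0.194), and its other probe set gave -0.11 ± 0.48.

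Of 30 genes of oxidative stress defence tested, Sod2, Gclm and Txnrd1 were called higher, none lower, and the median was 0.15 (5 higher, none lower and 0.16 without tumor-free 1 and cultured 3). Sod2, the mitochondrial superoxide dismutase and a target of NF-kB, read 276, 59.2 and 78.1 against 590, 740 and 1018 (2.71 ± 0.49, adjusted p = 0.0229). Gclm, the modifier subunit of the first enzyme of glutathione synthesis, was even across the tumor-free arrays, at 55.0, 56.7 and 55.7, and read 151, 538 and 243 on the cultured ones (2.13 ± 0.41, adjusted p = 0.0346). Txnrd1, cytosolic thioredoxin reductase, rose by 1.95 ± 0.37 (adjusted p = 0.0314). The groups did not overlap for any of these. Nqo1, like Gclm a known target of the factor Nrf2, changed by 1.21 ± 0.30 without passing (adjusted p = 0.0904), and Hmox1, heme oxygenase, by -0.07 ± 0.34. The 3 calls ended when tumor-free 2, tumor-free 3 or cultured 2 was removed, and those of Sod2 and Txnrd1 also without cultured 1 (adjusted p up to 0.112 for Sod2, 0.152 for Txnrd1 and 0.13 for Gclm). Fresh cells differed among these genes: Sod2 was already high there (2.24, adjusted p = 0.0452), while Gclm did not pass the test (-0.14, adjusted p = 0.879).

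Ptgr1, Abcc1 and Pon3, in none of the lists described, rose and kept their call in all 6 fits that left out 1 array. Ptgr1 (98440_at), which reduces reactive aldehydes and inactivates eicosanoids, read 172, 66.4 and 61.9 against 482, 1374 and 983 (3.17 ± 0.44, adjusted p = 0.00834). Abcc1 (99329_at), an exporter of glutathione conjugates and leukotriene C4, read 14.7, 12.7 and 16 against 196, 250 and 78.1 (2.89 ± 0.38, adjusted p = 0.00657). Pon3 (93940_at), a lactonase, read 38.3, 19.5 and 23.5 against 309, 301 and 134 (2.82 ± 0.37, adjusted p = 0.00657). Cultured 3 was the lowest cultured array for Abcc1 and Pon3, and no groups overlapped. The related exporter Abcc3 went the other way, from 291, 571 and 625 to 90.8, 136 and 77.0 (-2.17 ± 0.34, adjusted p = 0.0133), a call that ended with the removal of tumor-free 2, tumor-free 3 or cultured 1 (up to 0.0801).

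In the phagocyte NADPH oxidase, Cybb (100300_at), the gp91phox subunit that carries the electrons, read 76.3, 305 and 191 against 1011, 644 and 1176 (2.41 ± 0.43, adjusted p = 0.0226). It was the 1 of 7 oxidase genes called. Ncf1 and Ncf4, cytosolic subunits, changed by 1.22 ± 0.49 and 0.76 ± 0.25 and did not pass. In eicosanoid synthesis Ptges (104406_at), the inducible prostaglandin E synthase, read 59.8, 17.5 and 45.5 against 504, 342 and 172 (2.82 ± 0.45, adjusted p = 0.0147), the 1 of 12 genes called. Ptgs2, the cyclooxygenase that feeds it, did not pass the test, at 1048, 463 and 315 against 545, 202 and 22.9 (-1.83 ± 0.84, adjusted p = 0.356). The groups were separate for Cybb and Ptges and overlapped for Ptgs2. In the fit without tumor-free 1 and cultured 3, the oxidase list had 1 higher and 2 lower and the eicosanoid list 1 higher and 3 lower. Both calls ended when tumor-free 3, cultured 1 or cultured 2 was removed, and that of Ptges also without tumor-free 2 (adjusted p up to 0.086 for Cybb and 0.0755 for Ptges).

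Proteases and coagulation genes moved in both directions. Of 34 genes of matrix proteases, adhesion and remodelling, Mmp12 and F10 rose, Adamdec1 and Thbd fell, and the median was 0.32 (11 higher, 5 lower and 0.60 without tumor-free 1 and cultured 3). Over all genes, 5.45% were higher and 7.16% lower without these arrays. Mmp12 (95339_r_at), the macrophage elastase, read 1719, 600 and 413 against 3661, 8607 and 4589 (2.79 ± 0.54, adjusted p = 0.0362), and its second probe set rose by 3.43 ± 0.54 (adjusted p = 0.0133). F10 (103977_at), coagulation factor X, read 227, 35.5 and 41.5 against 649, 542 and 539 (2.87 ± 0.52, adjusted p = 0.0244). Its second probe set pointed the same way without passing (2.18 ± 0.61, adjusted p = 0.128). Thbd (162023_f_at), thrombomodulin, the anticoagulant receptor of thrombin, read 118, 93.3 and 96.9 against 9.23, 26.0 and 2.94 (-2.58 ± 0.39, adjusted p = 0.012). Tumor-free 1 was the highest tumor-free array for Mmp12 and F10 and still below every cultured array. The 3 calls ended when tumor-free 2, tumor-free 3 or cultured 1 was removed, and those of Mmp12 and F10 also without cultured 2 (adjusted p up to 0.165 for Mmp12, 0.117 for F10 and 0.0643 for Thbd).

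Glycolysis and hypoxia genes had the highest median of the 43 lists, 1.13, but no single gene was called by limma among 24 tested. Of these, 22 had a change above 0, 16 an unadjusted p under 0.05, and 9 had every cultured array above every tumor-free array. Over all genes, 52.9% had a change above 0 and 9.81% had every cultured array above every tumor-free array. Of 8695 probe sets, 1226 had an unadjusted p under 0.05. Pgk1, phosphoglycerate kinase, read 1453, 427 and 347 against 4014, 3399 and 1258 (2.09 ± 0.54, adjusted p = 0.1). Hk2, hexokinase 2, read 364, 177 and 163 against 850, 723 and 418 (1.5 ± 0.36, adjusted p = 0.0859). Tumor-free 1 was the highest of its group and cultured 3 the lowest of its group for both genes. Without these arrays 17 of the 24 genes were called higher, against 5.45% of all genes, none lower, and the median was 1.79. The list's median was 0.36 with tumor-free 1 set against cultured 1 and 2. It was 1.26 with tumor-free 2 and 3 set against cultured 3. Over the fits that left out 1 array the number called ran from 0 to 14 and the median from 0.80 to 1.61.

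Several called genes stood in none of these groups. Slc12a2 (99500_at), the sodium, potassium and chloride cotransporter, fell from 198, 777 and 796 to 30.4, 28.8 and 38.5 (-3.66 ± 0.46, adjusted p = 0.00519), and Tspan4 (97473_at), a tetraspanin, from 74.2, 118 and 97.7 to 6.51, 4.50 and 3.65 (-3.02 ± 0.33, adjusted p = 0.0032). Tspan13 and Otulinl fell by -2.56 ± 0.45 and -2.71 ± 0.56, calls that ended with the removal of tumor-free 2, tumor-free 3 or cultured 1, of cultured 2 for Tspan13 and of cultured 3 for Otulinl (adjusted p up to 0.11 and 0.199). Trim13 (103691_at), a ubiquitin ligase of the endoplasmic reticulum, rose from 13.9, 19.9 and 15.3 to 133, 91.3 and 94.2 (2.23 ± 0.25, adjusted p = 0.00322). Spsb1, an adaptor that targets inducible nitric oxide synthase for degradation, rose by 2.52 ± 0.49 (adjusted p = 0.0362), and its second probe set by 2.99 ± 0.49. Serf1 rose by 2.27 ± 0.46 (adjusted p = 0.0432). Removing any of tumor-free 2 and 3 and cultured 1 and 2 ended the calls of Spsb1 (adjusted p up to 0.152) and Serf1 (up to 0.184), and removing cultured 3 also that of Serf1.

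Smaller changes with narrow spread included Lmnb1 and Ptpn22. Lmnb1, lamin B1 of the nuclear envelope, read 274, 280 and 245 against 86.2, 64.4 and 77.4 (-1.72 ± 0.24, adjusted p = 0.00833), and Ptpn22, a phosphatase of antigen receptor signaling, 324, 318 and 360 against 96.3, 108 and 85.0 (-1.72 ± 0.26, adjusted p = 0.0115). Fresh cells were in or above the tumor-free range for both, at 322 to 467 for Lmnb1 and 323 to 590 for Ptpn22. Anxa4, an annexin, rose from 191, 150 and 168 to 503, 790 and 936 (2.04 ± 0.31, adjusted p = 0.0115), and Acp5, the tartrate-resistant acid phosphatase of macrophages and osteoclasts, from 220, 132 and 178 to 671, 692 and 403 (1.68 ± 0.29, adjusted p = 0.0192). The groups of these genes lay apart. Removing tumor-free 2 or tumor-free 3 ended the calls of Ptpn22, Anxa4 and Acp5, as did removing cultured 1 for Ptpn22 and Acp5 and cultured 2 for Anxa4 and Acp5 (adjusted p up to 0.0722, 0.0643 and 0.0987).

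The fresh arrays, which carry the tumor without the culture, allow each value to be set beside another. Against the same tumor-free arrays, Tspan4 was lower by -3.02 in fresh and -3.02 in cultured cells, Klf2 by -4.70 and -4.83, and Slc12a2 by -3.01 and -3.66. Trim13 was higher by 2.88 in fresh and 2.23 in cultured cells, and F10 by 2.51 and 2.87. The difference between cultured and fresh cells did not pass the test for these 5 genes (adjusted p of at least 0.224). By contrast, Arg1, Il12a, Tnfrsf9, Mmp12, Pon3, Ptgr1 and Ptges were higher in cultured than in fresh cells (adjusted p of at most 0.0293), and Adamdec1 and Thbd were lower (adjusted p of at most 0.0193). In fresh cells Tnfrsf9 changed by -0.00 from tumor-free cells, Mmp12 by -0.13, Pon3 by 0.26 and Adamdec1 by -0.22. Fosb and Mrc1 took an intermediate place, with -1.87 and -1.80 in fresh and -3.45 and -4.09 in cultured cells, and both steps passed the test.

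**Figure D4:**
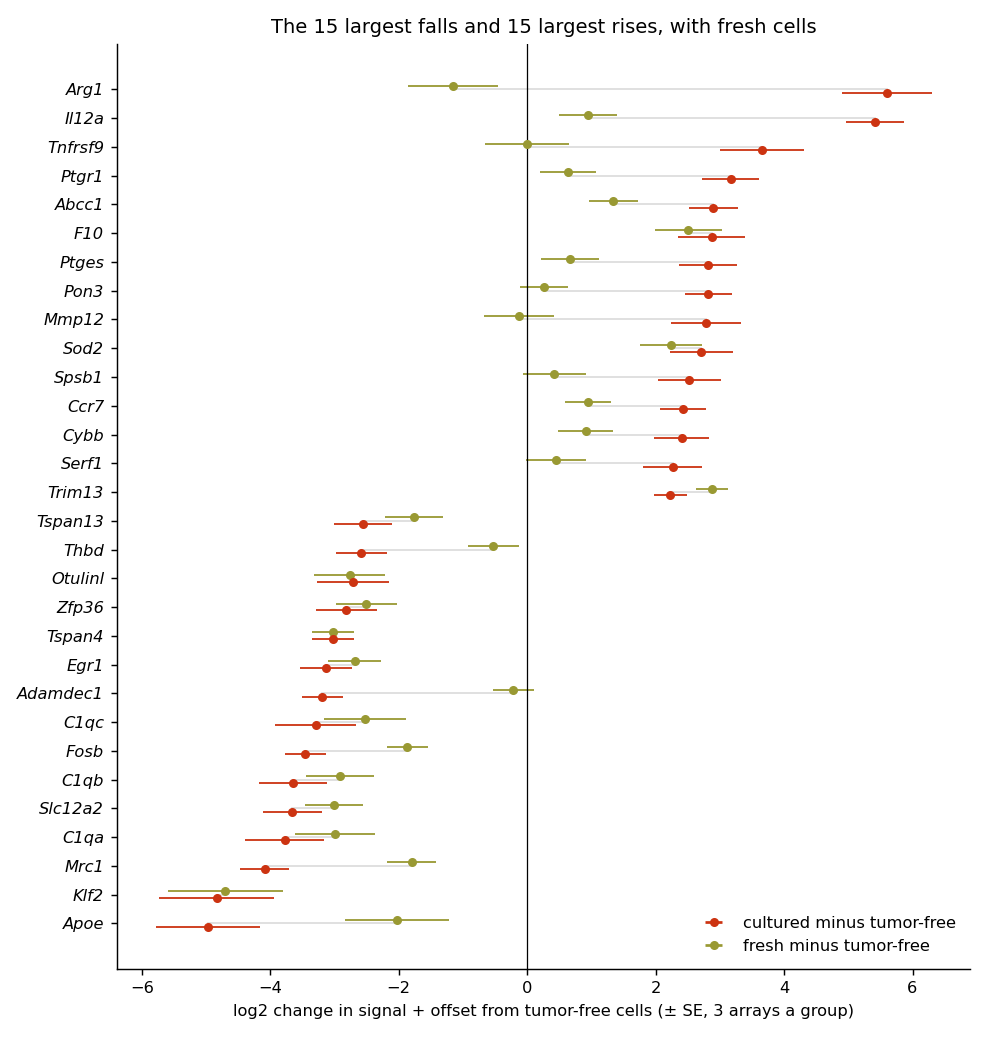
Log2 change from tumor-free cells with its SE (x axis) for the 15 genes with the largest falls and the 15 with the largest rises in cultured cells (y axis), in cultured (red) and in fresh (olive) tumor-bearing cells, 3 arrays a group. Both comparisons use the same 3 tumor-free arrays. Red and olive points lie together for Klf2, Tspan4 and F10 and far apart for Arg1, Il12a, Tnfrsf9 and Adamdec1.

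Markers of other cells were read for their whole lists. The 14 digestive enzyme genes of the exocrine pancreas tested, which were bright in fresh cells with a summed signal of 7278 to 12896, summed to 1011 to 1343 on the tumor-free and 946 to 1741 on the cultured arrays, with none called. The 5 Reg family genes summed to 91.6 to 150.1 on tumor-free and 104.6 to 359.4 on cultured arrays, against 7743 to 13418 on fresh arrays, with none called. At an unadjusted p under 0.05 there were 2 of the enzyme genes and 1 Reg gene. The 14 B cell markers summed to 623 to 3967 on the tumor-free and 952 to 2907 on the cultured arrays, the 11 T cell markers to 610 to 829 and 654 to 843, and the 15 erythroid markers to 1999 to 3803 and 2294 to 8700. No member of the B, plasma, T, NK cell, erythroid, platelet, eosinophil or fibroblast and endothelium lists was called by limma (0 to 2 members of each at an unadjusted p under 0.05). In the fit without tumor-free 1 and cultured 3, 6 of the 14 B cell markers were lower, with a median of -1.13 against -0.35 with them, as were 3 of 4 eosinophil and 2 of 8 plasma cell markers, while 1 plasma cell and 1 T cell marker were higher. Of the dendritic cell list 3 were then higher and 2 lower, of the mast cell list 1 lower, of the pancreatic enzymes 2 higher and of the Reg genes 1 higher. Of all genes, 7.16% were lower and 5.45% higher in that fit. With tumor-free 1 set against cultured 1 and 2, the B cell and eosinophil medians were 0.46 and -0.36. With tumor-free 2 and 3 set against cultured 3, they were -0.28 and -0.79. Ccr7 was the only dendritic and Kit, the stem cell factor receptor, the only mast cell marker called, the latter lower (-1.61 ± 0.32, adjusted p = 0.0406). Their lists leaned the other way. Of 12 dendritic cell markers, 8 had a change below 0 (median -0.24), and of 8 mast cell markers, 6 had a change above 0 (median 0.18). The call of Kit ended when any array other than tumor-free 1 was removed (adjusted p up to 0.194). The part of other cells in the changes above was not tested.

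Among the remaining lists few members were called. Ccnd1, cyclin D1, was the 1 of 40 cell cycle genes called, from 237, 187 and 187 to 47.7, 44.8 and 56.3 (-1.88 ± 0.32, adjusted p = 0.0192). Removing any of tumor-free 2 and 3 and cultured 1 and 2 ended that call (up to 0.0874), and a second probe set did not pass (-0.22 ± 0.53). Of the 40 changes 10 lay above 0, against 52.9% over all genes, and the median was -0.34. In the fit without tumor-free 1 and cultured 3, 9 cell cycle genes were lower, 1 was higher and the median was -0.66. That fit called 7.16% of all genes lower and 5.45% higher. Apoe was the 1 of 18 lipid handling genes, Lgmn the 1 of 34 lysosomal genes and Sod2 the 1 of 23 NF-kB factors and feedback genes called, with medians of -0.22, 0.30 and 0.44. In the fit without tumor-free 1 and cultured 3, these lists had 4, 5 and 7 genes higher and 4, 3 and 1 lower. Abca1, a cholesterol exporter, had non-overlapping groups (1.69 ± 0.45, adjusted p = 0.107), and its second probe set was called higher (2.69 ± 0.45, adjusted p = 0.017). No gene was called by limma among 46 of the respiratory chain and ATP synthase (median 0.01, 3 at an unadjusted p under 0.05), 24 cytosolic ribosomal proteins (-0.17, 1), 29 of amino acid starvation and unfolded protein (0.02, 7), 18 of cholesterol synthesis (0.26, 2), 18 Bcl-2 family members and caspases (0.39, 3), 17 heat shock proteins (-0.22, 5) or 13 of pattern recognition (-0.39, 5). After removal of tumor-free 1 and cultured 3, 0 to 5 genes of each of these lists were higher and 0 to 2 lower.

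**Figure D5:**
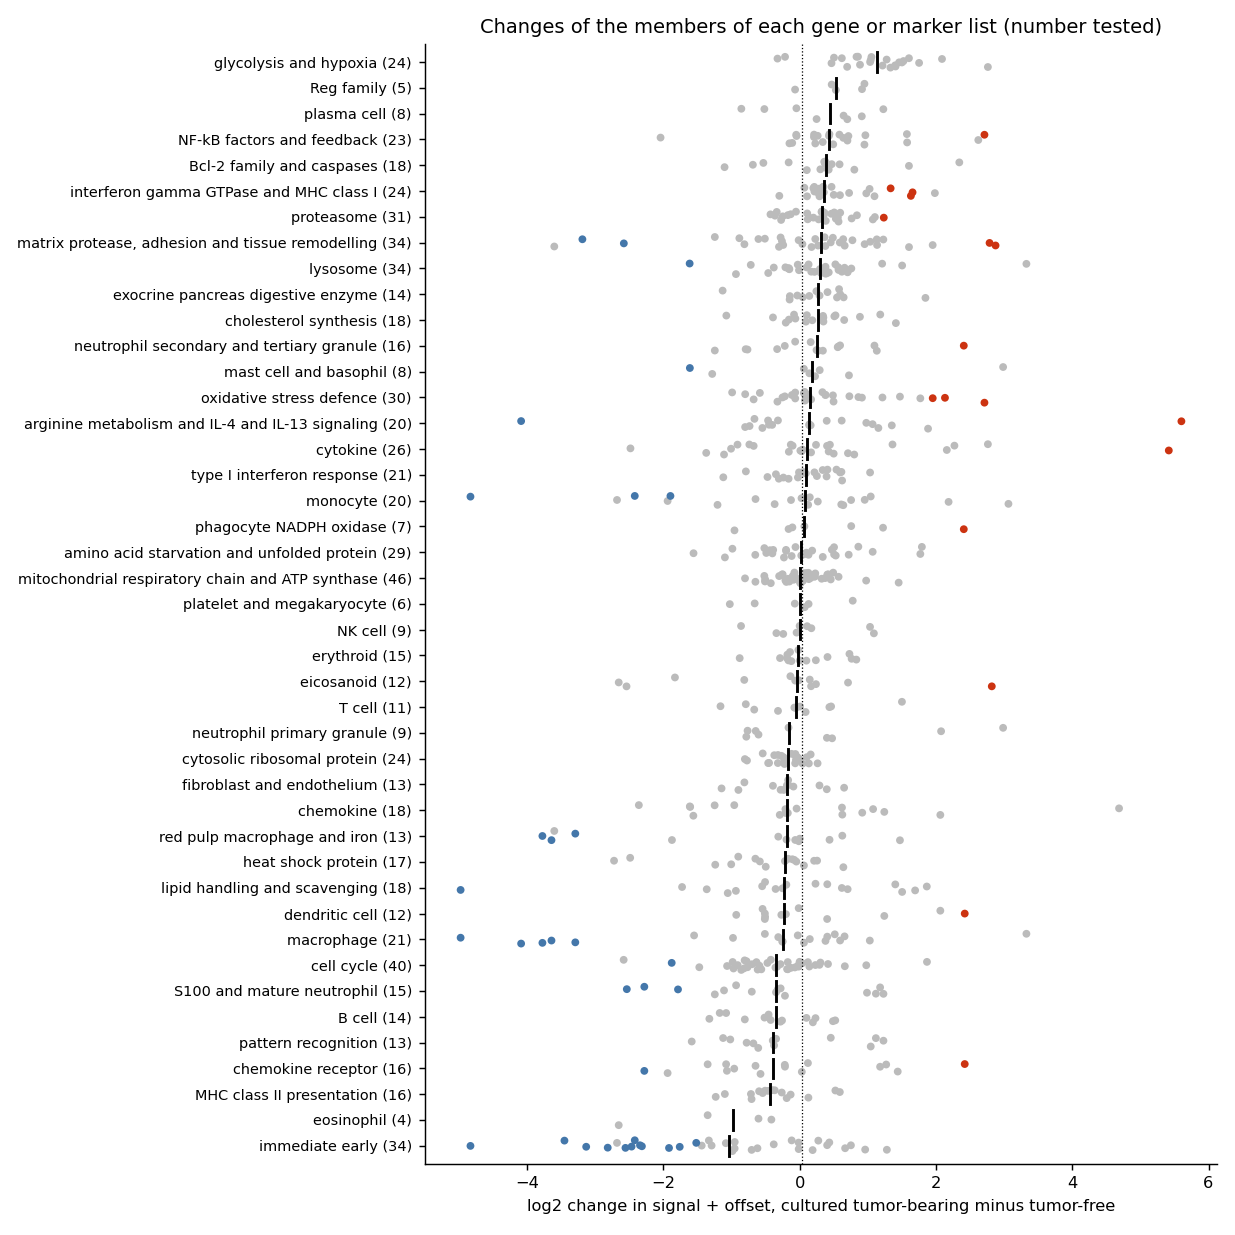
Log2 change from tumor-free to cultured cells (x axis) of every tested member of the 43 gene and marker lists (y axis, number tested in parentheses), with the list's median as a black bar and the median of all genes as a dotted line; red and blue points were called higher and lower. The immediate early list has the lowest median, -1.04, with 12 blue points, and the glycolysis and hypoxia list the highest, 1.13, with no colored point.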

How the data were processed

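RNA of CD11b+ cells sorted from mouse spleen was hybridized to 9 arrays, 3 per group; groups came from the sample titles. Per the submitters' processing notes, the authors computed MAS5 signals, and the deposited column holds each probe set's intensity, unlogged. A software version and a scaling target were not given in the sources used here. Trimmed means (2% cut at each end) of 100.06 to 100.08 showed arrays already scaled, and nothing was rescaled.

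The 20th percentile of all signals, 7.83, was added before taking log2. The 66 control probe sets and the 30% of the others with the lowest mean were left out. The 9 arrays were fitted together, 1 mean for each of 3 groups, with limma 3.58.1 under R 4.3.3, an intensity trend and 6 residual degrees of freedom. The procedure was run on simulated data with independent noise. No simulated array stood apart, so that run does not cover arrays such as tumor-free 1 and cultured 3. Tests were two-sided, with Benjamini-Hochberg adjustment over 8695 probe sets and a threshold of 0.05. SE are those of the moderated fit. The number of arrays and the spread of the arrays that stood apart limit the precision.

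Platform annotation gave 1 symbol for 10855 probe sets, several for 396, and did not list 1237; 10839 were matched by gene ID to RefSeq (GRCm38.p6). A gene is represented by its brightest probe set. Suffixes such as _s, _f, _r and _i mark probe sets that may not be unique to 1 transcript. Named were the 15 largest rises and 15 largest falls called, up to 6 members of each list, every called member where a list had 5 or fewer, and 22 genes of the study's subject; 25 further genes were chosen after their values were seen: Fgl2, Abcc3, Lmnb1, Ptpn22, Anxa4, Acp5, Dusp1, Dusp6, Fos, Fosl1, Ier2, Junb, Rgs2, Sgk1, Zfp36l2, B2m, H2-Aa, H2-K1, Hmox1, Ifit3, Il12b, Itgb2, Ltf, S100a8 and S100a9. Opposite probe sets are named beside the gene. For F2r, named only in the closing section, a second probe set gave 0.11 ± 0.40 and the representative one -0.66. The members, the 43 lists, the rules and the tests were chosen with earlier results of these data known. Lists are described by counts and medians with no set test, and share some members.

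Alternatives were quantile normalization, median centring, other offsets and filters, the 6 arrays alone, no intensity trend, the mean of a gene's probe sets, a replicate block, each array left out, tumor-free 1 and cultured 3 left out, and a split of the 9 arrays into classes of high and low spike-in signal, used as a block or analysed class by class. The high class holds tumor-free 1, cultured 1 and 2 and fresh 1 and 2. Promoter windows came from a RefSeq table, and a further motif searched in the same windows is not reported here.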

Additional observations from a re-analysis of the deposited data

How the results depend on the processing

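Of 107 probe sets called (51 higher, 56 lower), quantile normalization, median centring, other offsets and filters, no intensity trend and the replicate block left counts within 1.5 times of these. With the 6 arrays alone 14 were called (5 and 9), without tumor-free 1 and cultured 3 1060 (489 and 571), of which 106 were among the 107, with spike-in classes blocked 177 (92 and 85), within the high class 686 (303 and 383) and within the low class 812 (390 and 422). Leaving out 1 array gave 24 to 529 (10 to 265 higher, 14 to 264 lower). The cause was not tested, except that fewer arrays leave fewer degrees of freedom. Whether the replicate numbers pair the arrays is not known. Deviations of same-numbered tumor-free and cultured arrays correlated at 0.176, -0.090 and 0.130. Tumor-free 2 and cultured 3, differently numbered, correlated more highly than these, while the same-numbered fresh and cultured arrays all correlated positively. An array in each group stood apart and weighs on these deviations, so they cannot decide the pairing. The replicate block gave 144 calls (74 and 70), keeping 100 of the 107. The signs of all 80 called genes were the same in both classes, which had to be so because their groups do not overlap. Signs turned, past the threshold in that class, for 11 named genes: within the high class Ccl17 (-2.75), Il6 (-1.48), Mmp8 (-1.09), Cd74 (1.02), H2-Ab1 (1.43) and H2-Aa (1.72), and within the low class Ccl2 (1.97), Ifit3 (2.99), Tnf (1.74), F2r (1.33) and Csf1r (-1.22). A class holds 1 or 2 arrays a group, a lone array being assumed to vary like the others. With no detection calls, a low signal may lie at background, and with 3 arrays a group changes under 1 on the log2 scale were not called.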
